A study of Homo sapiens with 32 samples.

Results

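The m6A methylome of undifferentiated human embryonic stem cells (S0) was read from 8 of the 32 libraries of a series that follows stem cells towards insulin-producing β-like cells. The members were all libraries of stage S0: for each of 4 RNA preparations, H1 replicates 1 and 2 and MEL1 replicates 1 and 2, an input library and a library of fragments bound by an m6A antibody (IP). H1 and MEL1 are established embryonic stem cell lines of different genetic background, neither of which carried an introduced mutation or transgene according to the sources used here. Both were grown as colonies on vitronectin in Essential 8 medium and received no differentiation factor, while the 24 later libraries came from cells at posterior foregut (stage S3), at pancreatic progenitor (stage S4) and at immature β-like identity (stage S6). Sequenced RNA was poly(A)-selected and sonicated, and the input was set aside before immunoprecipitation, so that input and IP of a preparation share their RNA. The study calls the preparations independent biological samples but the labels do not say whether replicates of a line came from separate thaws or passages.

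N6-methyladenosine (m6A) is the most abundant internal modification of mRNA. It is deposited mainly by the METTL3–METTL14 heterodimer with WTAP, VIRMA, ZC3H13, CBLL1 (HAKAI), RBM15 and RBM15B as partners, at adenosines within short motifs with a GGAC-like core, and is read by YTH-domain proteins, which speed decay, and by IGF2BP proteins, which are credited with stabilising their targets. In pluripotent cells m6A is known for shortening the life of transcripts that maintain the undifferentiated state, so that cells can leave it.

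The 16 markers fixed for undifferentiated cells fitted the label of the samples. Of these, 11 were measured, and their summed input level was between 4350 and 4775 CPM (counts scaled to a common library total) in the 4 S0 input libraries against means of 1226, 1453 and 926 at S3, S4 and S6. All 11 had a higher mean at S0 than at S3. Mesoderm markers (4 of 7 measured) summed to 27.8 to 43.8 CPM, mostly KDR. Markers of definitive endoderm (7 of 8 measured) summed to between 10.2 and 13.95 CPM at S0 and to 1142 at S3, and markers of trophectoderm and amnion (4 of 6) to between 2.74 and 5.04. The neuroectoderm list reached 1022 to 1632 CPM through NES, which stem cells also express, while SOX1 and OTX1 were below 1 CPM. Among pancreatic markers (6 of 6 measured, 51.6 to 245 CPM at S0) ISL1 and GLIS3 were at 0 in all 4 input libraries, and CHGA made most of the sum. POU5F1, NANOG, METTL3 and METTL14 were not analysed here.

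The S0 input libraries held 4371890 to 6879256 reads in merged peaks and the IP libraries 11274108 to 14928825. Replicates of H1 were close to each other (chi-square per degree of freedom over peaks of 1.89 for input and 4.75 for IP) and those of MEL1 were farther apart (13.7 and 35.0). The log2 ratio of IP to input, over 12626 peaks, correlated across peaks at r = 0.97 between the H1 replicates, at 0.85 between the MEL1 replicates and at 0.77 to 0.83 between lines. Peaks are not independent, and these values are descriptive.

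To find which transcripts were methylated at this stage, IP was tested against input in each merged peak, with the RNA preparation as a block. A value of 0 on the log2 scale is the typical merged peak, which received 3.82 IP reads for each input read over the 8 libraries, so "enriched" and "depleted" mean more or less antibody-bound RNA than that peak and not methylated or unmethylated. Of 25905 peaks tested, 6706 (25.9%) were enriched and 7154 (27.6%) depleted at an adjusted p under 0.1 and at least 2-fold. The split depends on the reference. Scaled to library totals 9171 peaks were enriched and 5384 depleted, with the median peak 0.58 higher on the log2 scale. Scaled to mitochondrial mRNA, which is made outside the reach of the nuclear methyltransferase, 21085 were enriched and 91 depleted, with the median over 5 higher. All further values are relative to the typical peak or transcript, so that under those scalings they shift together.

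Of 7953 genes with a tested peak, 4079 (51.3%) had at least 1 enriched peak, 2663 (33.5%) at least 1 depleted peak and 537 both. Of the 5602 genes with at least 2 tested peaks, which alone can hold both, these 537 were 9.59%. In 1493 genes every tested peak was enriched, in 1105 every tested peak was depleted, and 1748 genes had neither.

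The most enriched peaks had few input reads and many IP reads. By the rule for named genes, the 12 genes with the highest ratio among called peaks with at least 10 counts in every S0 input library and the same direction in all 4 preparations were PHOSPHO2, STIM2, P2RY1, SHANK2, RAB39A, C2orf15, WDR20, NR5A2, SIX4, MDM2, WDR89 and ABHD13. Their log2 ratios ran from 3.75 to 4.12, which is 13.4- to 17.4-fold above the typical peak. PHOSPHO2, a phosphatase, led with 11, 10, 26 and 13 input reads (H1 replicates 1 and 2, then MEL1 replicates 1 and 2) and 991, 1168, 716 and 945 IP reads in its peak at position 751 (log2 4.12 ± 0.42 SE; edgeR quasi-likelihood test, adjusted p = 0.00011). P2RY1, an ADP receptor, had 62, 58, 110 and 76 input reads and 2394, 2674, 5098 and 8620 IP reads (log2 3.86 ± 0.30). The ratio of P2RY1 was highest in MEL1 replicate 2 (4.71) and lay between 3.51 and 3.70 in the other preparations.

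Of these genes NR5A2 is a nuclear receptor that acts on the pluripotency network, SIX4 a homeobox factor and MDM2 the ubiquitin ligase that limits p53. NR5A2 (position 4301) had 11, 19, 27 and 24 input reads and 790, 904, 1038 and 1385 IP reads (log2 3.77 ± 0.32). SIX4 (position 3859) had 34, 34, 40 and 60 input reads and 1739, 2000, 1906 and 2937 IP reads (log2 3.76 ± 0.26), with the narrowest spread of the 12 over preparations, from 3.50 to 3.91. MDM2 (position 4501) was much more abundant in MEL1, with 34 and 30 input reads in H1 and 398 and 288 in MEL1, and 1994, 2128, 11233 and 17689 IP reads (log2 3.75 ± 0.30). Its ratio was 4.10 and 4.12 in H1 and 2.99 and 3.83 in MEL1. The remaining members were STIM2, a calcium sensor of the endoplasmic reticulum, SHANK2, a synaptic scaffold, RAB39A, a small GTPase of vesicle traffic, WDR20, a cofactor of deubiquitinases, ABHD13, a hydrolase-fold protein, and C2orf15 and WDR89. WDR89 varied most over preparations, from 2.75 to 5.41.

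**Figure D1:**
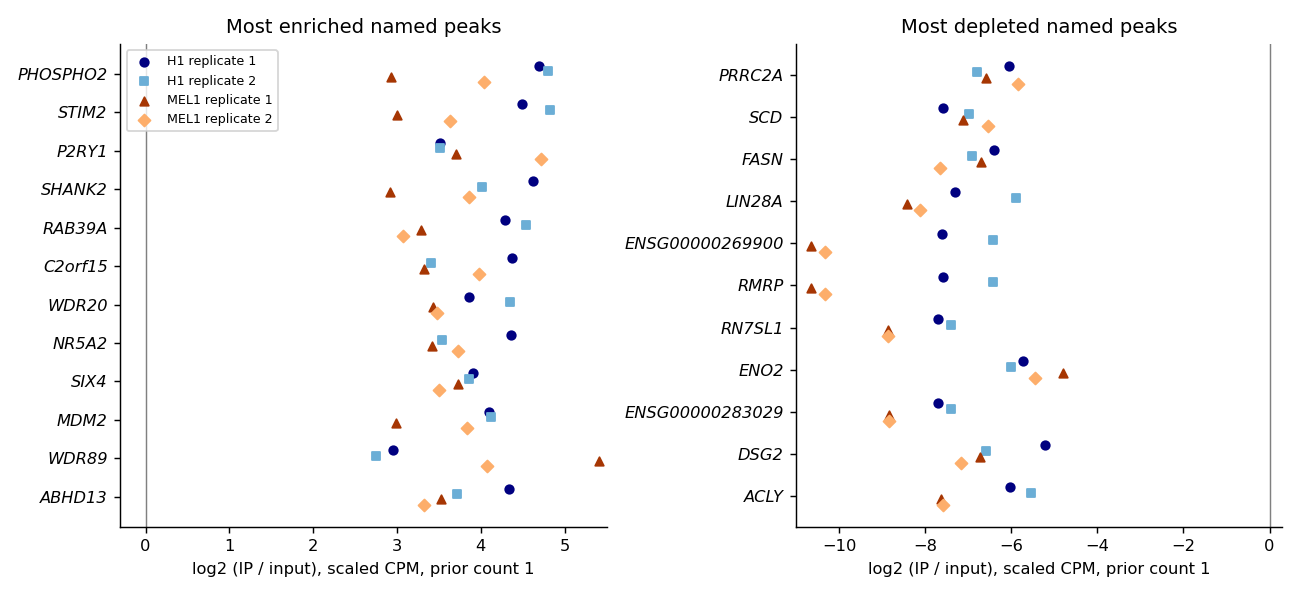
IP over input, as a log2 ratio, in the 4 RNA preparations (points) for the most enriched and most depleted named peaks at S0, 1 peak a gene, with 0 at the typical peak. All enriched peaks lie above 2.75 in every preparation. Depleted peaks have 0 to 28 IP reads, so their ratios depend on the prior count of 1.

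The most depleted peaks had hardly any IP reads at all. SCD, FASN and ACLY, enzymes of fatty acid synthesis, the RNA-binding protein LIN28A, the desmosomal cadherin DSG2, the glycolytic enzyme ENO2, the m6A reader PRRC2A, and the noncoding RNAs RMRP (RNase MRP) and RN7SL1 (signal recognition particle) were among the 12 genes named by the rule. The rule also took 2 entries without a symbol, ENSG00000269900 and ENSG00000283029, whose counts nearly repeat those of RMRP and RN7SL1 and cannot be told apart from them. SCD (position 1801) had 73, 83, 62 and 39 input reads and 0, 1, 0 and 0 IP reads, a ratio 981-fold below the typical peak with a 95% counting interval from 175 to 38899. FASN (position 2115) had 57, 49, 46 and 86 input reads and a single IP read (909-fold lower, 162 to 36034). ACLY (position 1268) had 44, 30, 89 and 81 input reads and 1, 1, 0 and 0 IP reads (466-fold lower, 128 to 3867). These are the lowest peaks of the 3 mRNAs. As whole transcripts SCD, FASN and ACLY had IP reads in every preparation and log2 ratios of -4.71 ± 0.22, -4.54 ± 0.24 and -5.41 ± 0.27.

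LIN28A had its lowest peak at position 3001, with 60, 68, 154 and 118 input reads and 0, 3, 0 and 0 IP reads (509-fold lower, 173 to 2479). For PRRC2A (position 201; 25, 45, 43 and 24 input reads) and ENO2 (position 3151; 20, 26, 12 and 18) no IP read was found in any library, which against a floor of 3 IP reads over the group is at least 174-fold and at least 96.7-fold lower. RMRP had 649, 633, 726 and 846 input reads and 10, 28, 0 and 1 IP reads (279-fold lower, 204 to 394). All but 1 of its IP reads came from H1. The RN7SL1 peak at position 1 had 7 and 10 IP reads in H1 and 0 in both MEL1 libraries. As a whole transcript, however, RN7SL1 had 569 and 773 IP reads in H1 and 689 and 485 in MEL1. Intervals and floors cover counting error only.

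Summed over the merged peaks of a gene, 2255 of 7959 transcripts (28.3%) were enriched and 2118 (26.6%) depleted, with a median log2 ratio of 0.23. The typical transcript received 5.80 IP reads for each input read, so the same counts give a value 0.60 lower on the transcript scale than on the peak scale. With library totals 4577 were enriched and 1171 depleted (median 1.19 higher), and with mitochondrial mRNA 7534 and 11 (median 5.67 higher). Among the 10 transcripts with the highest ratios, from 3.01 to 3.55 on the log2 scale, were RAB39A, PHOSPHO2, CENPL, WDR20, ZSCAN12, C2orf15, THEMIS2, CTBP2 and OTUD1. Among them CTBP2, a transcriptional corepressor, stood out for its depth, with 318, 269, 402 and 310 input reads and 16647, 19631, 12191 and 15190 IP reads (log2 3.08 ± 0.20, adjusted p = 7.8e-06). CENPL, a centromere protein, and ZSCAN12, a zinc-finger factor, had 3.36 ± 0.31 and 3.18 ± 0.27.

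The lowest transcripts were largely abundant noncoding RNAs and copies of abundant mRNAs. RMRP and ENSG00000269900, RN7SL1, RN7SL2, RN7SL4P and ENSG00000283029, the pseudogenes RPLP0P9 and MTCO1P12, and ARPC1A were among the 10 lowest, with log2 ratios from -9.01 to -7.10. Apart from ARPC1A, those named share sequence with other copies or overlap another entry, so which locus gave their reads is uncertain. ARPC1A, a subunit of the actin-nucleating complex, had 73, 59, 93 and 62 input reads and 1, 2, 0 and 0 IP reads (555-fold lower, 95% counting interval 188 to 2706).

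The share of transcripts called enriched, relative to the typical transcript, ran from none to 60.7% over the gene lists. Zinc-finger (ZNF) genes, mostly KRAB-type repressors in the human genome, had the largest enriched share of the lists, at 176 of 290 measured transcripts (60.7%) against 28.3% of all transcripts, with 8 depleted and a median of 1.32 on the log2 scale. At the level of peaks, 598 of their 1138 were enriched and 59 depleted. Their median input level of 15.2 CPM was close to the 18.3 CPM of all genes. The most abundant members were ZNF146, with 1.74 ± 0.23, and ZNF532, ZNF638 and ZNF609, with -0.28, -0.26 and -0.19, none of the latter called. The share fell with abundance: by quartile of the input level at the later stages, 83 of 102, 52 of 73, 36 of 79 and 5 of 36 ZNF transcripts were enriched (81.4%, 71.2%, 45.6% and 13.9%), against 42.4%, 36.2%, 24.2% and 10.6% of all transcripts. In the highest quartile the ZNF share was thus close to that of all transcripts.

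Groups that serve basic metabolism and structure were at the other end, where 26.6% of all transcripts were depleted and 28.3% enriched. All 13 mitochondrially encoded transcripts were depleted, with a median of -5.44 on the log2 scale, as were all 20 transcripts of cytoskeletal and other abundant housekeeping proteins (median -3.65) and 11 of 13 of glycolysis (median -4.35). GAPDH had -7.01 ± 0.37, TPI1 -5.04 ± 0.23 and PGAM1 -4.37 ± 0.19, whereas SLC2A3, the high-affinity glucose transporter, had -0.74 ± 0.22 and was not called. HSP90AB1, ACTG1, HSP90AA1 and TUBB lay between -5.27 and -3.52. Splicing factors were depleted in 15 of 20 and enriched in none, with HNRNPA1 at -4.24 ± 0.28, SNRPB at -5.28 ± 0.29 and SRRM2 at -2.99 ± 0.21, and SON at -0.07 ± 0.22.

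Transcripts of protein synthesis and respiration were also more often depleted than all transcripts, of which 26.6% were depleted and 28.3% enriched. Translation factors counted 27 of 41 depleted and 2 enriched (median -1.93). This list was set by a name pattern and also took pseudogenes such as EEF1A1P5 (-5.12 ± 0.37) and EEF1A1P6 (-5.32 ± 0.40), which share reads with EEF1A1. EEF2 had -2.20 ± 0.27 and EIF4B -4.58 ± 0.27. Cytosolic ribosomal proteins had 11 of 20 depleted and 1 enriched (RPL13A -3.41 ± 0.24, RPL10A -6.65 ± 0.26, RPL41 -1.81 ± 0.26), mitochondrial ribosomal proteins 20 of 41 and 2 (MRPS2 -1.74 ± 0.20, MRPL33 -2.23 ± 0.39), and nuclear-encoded respiratory chain subunits 12 of 20 and 1 (ATP5F1B -5.26 ± 0.31, COX6B1 -4.38 ± 0.19). Of 10 histone transcripts 6 were depleted and none enriched, among them H4C3 at -3.52 ± 0.29. Of the 18 peaks of these genes 3 were enriched and 6 depleted, against 25.9% and 27.6% of all peaks. In the 32-library model their median at S0 was 1.08, above the 0.21 of all peaks. Histone mRNAs of the replication-dependent kind lack a poly(A) tail, and the list also took the variant H2AZ2 (-1.57 ± 0.19). Cell cycle genes had 15 of 23 depleted and 2 enriched, with CDC20 at -4.41 ± 0.25 and TOP2A at -3.26 ± 0.23 but MKI67 at -0.38 ± 0.26 and MCM3 at -0.56 ± 0.19.

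**Figure D2:**
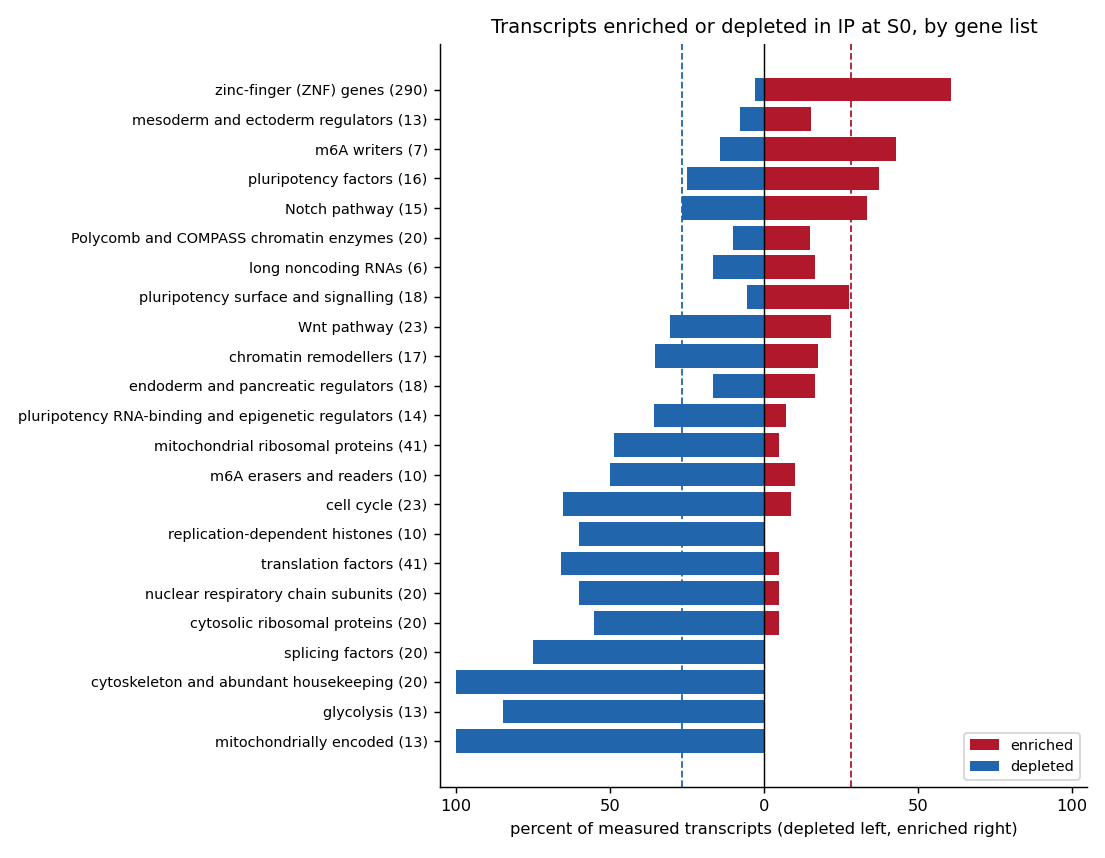
Percent of the measured transcripts of each gene list that were enriched (right) or depleted (left) in IP at S0, with the number measured in brackets and the percent over all transcripts as dashed lines (28.3% enriched, 26.6% depleted). Zinc-finger genes reach 60.7% enriched, and mitochondrially encoded and housekeeping transcripts are all depleted.

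Regulators of development and chromatin had medians between -0.07 and 0.75 on the log2 scale, against 0.23 for all transcripts. Their called counts stand against 28.3% enriched and 26.6% depleted over all transcripts. The Wnt (21.7% and 30.4%) and Notch lists (33.3% and 26.7%) were near these shares. Of 18 endoderm and pancreatic regulators 3 were enriched and 3 depleted, at a median input level below 2 CPM, including ONECUT1 at 2.23 ± 0.30 and ONECUT2 at 1.10 ± 0.32. Without MEL1 replicate 2 ONECUT2 had 0.74 and was not called. Of 13 mesoderm and ectoderm regulators 2 were enriched and 1 depleted, the latter being NES (-1.77 ± 0.22). Polycomb and COMPASS enzymes, which write the repressive and active histone marks of developmental genes, had 3 of 20 enriched and 2 depleted, and their 4 most abundant members SETD5, JARID2, EP300 and NSD1 lay between -0.36 and 0.75. Chromatin remodellers had 3 of 17 enriched and 6 depleted, with BPTF at -0.57, CHD7 at 0.68, SRCAP at -0.61 and ARID1A at 0.74. The Wnt pathway had 5 of 23 enriched and 7 depleted (FZD7 1.33 ± 0.22, BCL9L -0.71 ± 0.23), and the Notch pathway 5 of 15 and 4 (RBPJ 1.13 ± 0.26, MAML1 0.40 ± 0.16). Without H1 replicate 1 or 2, RBPJ had 0.98 and 0.93 and fell below the fold threshold. Of 6 long noncoding RNAs 1 was enriched and 1 depleted, the latter being ESRG (-1.26 ± 0.17), a transcript known from pluripotent cells, while MALAT1, TUG1 and NORAD had -0.33, 0.85 and 0.73.

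The input level moved with these groups. By quartile of the mean input CPM at S3, S4 and S6, which are other libraries than those tested, 42.4% of transcripts in the lowest quartile were enriched and 13.5% depleted, and 10.6% and 43.4% in the highest. Within the highest quartile, where 43.4% of all transcripts were depleted, glycolysis had 9 of 10 depleted, translation factors 18 of 19, housekeeping proteins 19 of 19, splicing factors 10 of 14, cell cycle genes 6 of 10, and cytosolic ribosomal proteins 5 of 9. Mitochondrial ribosomal proteins had 2 of 7 there, and ZNF genes 2 of 36 depleted and 5 enriched. The part of abundance in the group values was not tested.

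**Figure D3:**
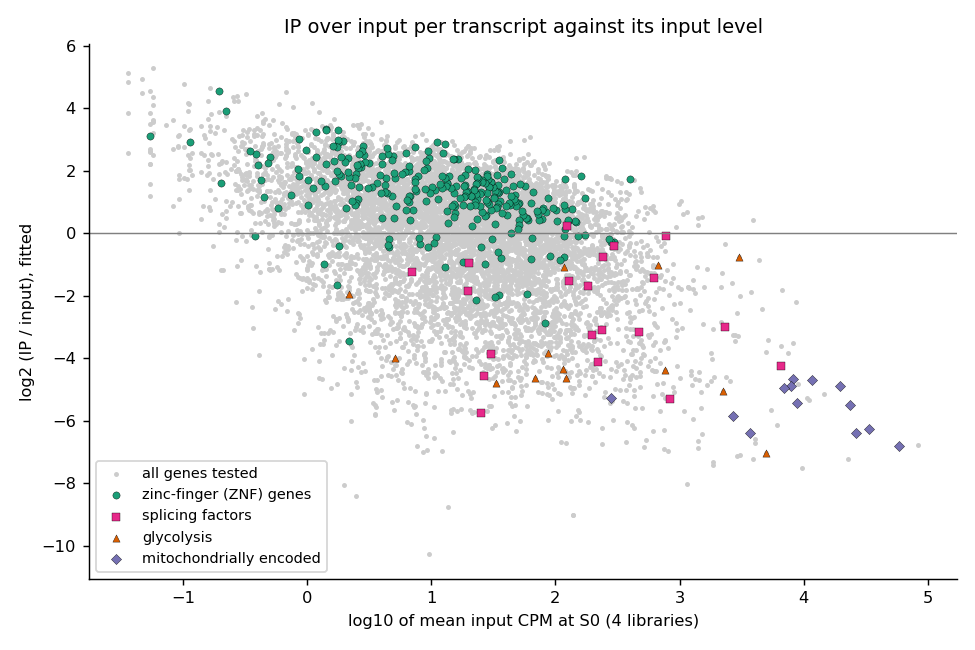
Fitted log2 ratio of IP to input per transcript (vertical axis, 0 is the typical scaling point) against the log10 of the mean input CPM over the 4 S0 input libraries, for all transcripts (grey) and 4 gene lists (coloured). The input reads of the horizontal axis are also the denominator of the ratio, so part of the downward slope is built in. Zinc-finger genes lie mostly above 0 and mitochondrially encoded transcripts all below -4.

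Of the pluripotency factors 16 of 23 were measured, of which 6 were enriched (37.5%, against 28.3% of all transcripts), 4 depleted (25%, against 26.6%) and 6 neither. These shares are near those of all transcripts. KLF4, a reprogramming factor, had 3, 2, 3 and 10 input reads and 168, 239, 139 and 200 IP reads in a single peak (transcript log2 2.97 ± 0.53). FOXD3 (1.56 ± 0.60), FOXO1 (1.51 ± 0.19), MYCN (1.502 ± 0.21), OTX2 (1.16 ± 0.19) and SOX2 (1.04 ± 0.20) were the other enriched factors. FOXD3 lost its call without H1 replicate 1 (1.39) or MEL1 replicate 1 (1.08), and MEL1 replicate 2 alone gave a negative ratio of -0.69. Without MEL1 replicate 2, OTX2 and SOX2 had 0.89 and 0.92 and fell below the fold threshold. ETV4 (-3.24 ± 0.35), TCF7L1 (-2.76 ± 0.22), a repressor of pluripotency genes, ZIC2 (-1.26 ± 0.24) and SALL2 (-1.07 ± 0.21) were depleted, SALL2 no longer without H1 replicate 1 (-0.996) or 2 (-0.96). DPPA4, ZFP42, SALL1, MYC and SALL4 were not called and ran from 0.00 to 0.77.

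Values for whole transcripts hid strong peaks. SOX2, the HMG-box factor that pairs with POU5F1, had 7 peaks from -1.73 to 2.01, of which 1 was enriched and 1 depleted. Its peak at position 1051 held 3712, 4004, 3709 and 3140 input reads and 61841, 74021, 41912 and 49111 IP reads (log2 2.01 ± 0.26, adjusted p = 0.00035), and all 4 preparations were high. SALL4, a zinc-finger factor of stem cells, was not called as a transcript, but its peak at position 4423 had 213, 192, 323 and 357 input reads and 4434, 5675, 5525 and 5558 IP reads (log2 2.41 ± 0.26, adjusted p = 0.00014). The main peak of MYCN (position 1351) had 544, 653, 516 and 574 input reads and 8519, 10722, 10464 and 11808 IP reads (log2 2.25 ± 0.23). In SOX2 and SALL4, enriched peaks thus lay beside peaks of the same mRNA at or below the typical ratio.

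**Figure D4:**
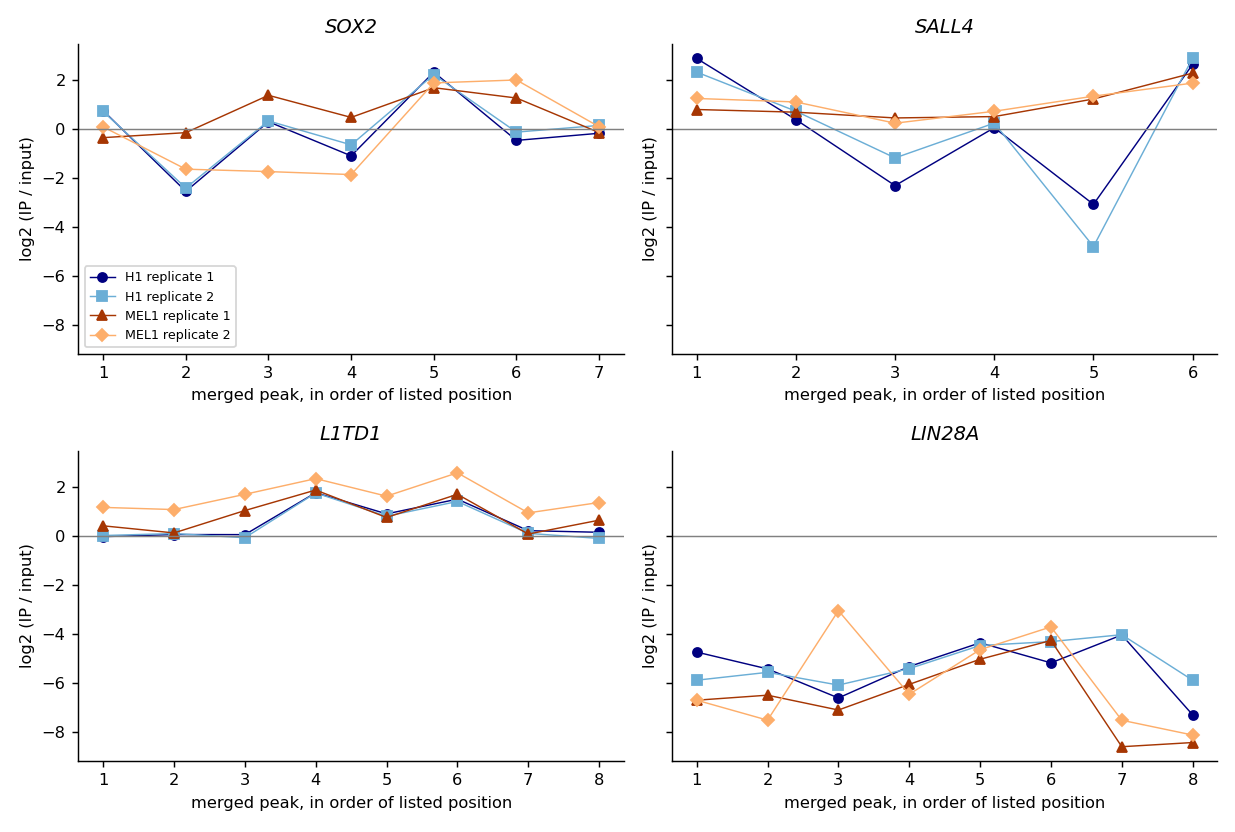
IP over input, as a log2 ratio, for the merged peaks of SOX2, SALL4, L1TD1 and LIN28A, in order of the listed position, with 1 line for each RNA preparation and 0 at the typical peak. SOX2, SALL4 and L1TD1 rise above 1.5 in a few peaks only, and all 8 peaks of LIN28A lie below -3 in every preparation.

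RNA-binding and epigenetic regulators of pluripotency ranged from strongly depleted to enriched. Of 14 measured (of 16), 5 were depleted (35.7%, against 26.6% of all transcripts) and 1, TERF1 (1.10 ± 0.17), enriched (against 28.3%). In the highest quartile of input level 2 of 5 were depleted, where 43.4% of all transcripts were. Without MEL1 replicate 2 TERF1 had 0.96 and was not called. LIN28A, which blocks maturation of let-7 microRNAs, had all 8 peaks depleted, from -8.68 to -4.42, and its peak with the most IP reads (position 2651) held 929, 919, 3122 and 2301 input reads against 189, 224, 27 and 52 IP reads. DNMT3B, the de novo DNA methyltransferase of stem cells, had all 6 peaks depleted, from -5.81 to -3.71. LIN28B (-1.90 ± 0.17), ESRP1 (-2.36 ± 0.19), an epithelial splicing regulator, and DNMT3A (-1.24 ± 0.53) were the other depleted transcripts. DNMT3A had 0.17 and -0.05 in H1 and -2.50 and -2.61 in MEL1, and lost its call without MEL1 replicate 1 (-0.77) or 2 (-0.85). L1TD1, an RNA-binding protein that is almost restricted to pluripotent and germ cells, had no depleted peak. Of its 8 peaks 3 were enriched, with 1030, 1024, 2321 and 2014 input reads and 11755, 13824, 30124 and 43621 IP reads at position 1651 (log2 1.93 ± 0.25). TET1 and CHD7 (0.70 and 0.68), USP44 (0.53), MTF2 (0.12), RIF1 (-0.07), JARID2 (-0.36) and TRIM71 (-0.67) were not called.

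Among surface and signalling genes of stem cells (18 of 22 measured), 5 were enriched (27.8%, close to the 28.3% of all transcripts) and 1 depleted (5.56%, against 26.6%). NODAL and LEFTY1, ligand and antagonist of the pathway that maintains the primed state, had 1.88 ± 0.23 and 1.37 ± 0.29, FGF2, the growth factor of the medium, 1.76 ± 0.18, the Wnt receptor FZD7 1.33 ± 0.22 and the effector SMAD3 1.08 ± 0.22. Without MEL1 replicate 2 SMAD3 had 0.79 and was not called. NODAL was far more abundant in MEL1, with 18 and 29 input reads in H1 and 497 and 461 in MEL1, and 421, 429, 10014 and 11891 IP reads. The peak of FGF2 with the most IP reads (position 701) held 272, 248, 399 and 332 input reads and 6427, 6884, 5527 and 7916 IP reads (log2 2.51 ± 0.26). EPCAM, an adhesion molecule used to sort stem cells, was depleted at -4.39 ± 0.57, with -2.92 and -3.27 in H1 and -6.03 and -5.35 in MEL1. The uncalled members were PODXL (-0.84), FGFR1 (-1.26), ERBB3 (-0.81), LEFTY2 (-0.57), CDH1 (-0.31), IGF1R (-0.14), LRP6 (-0.01), TGFBR1 (0.02), FGFR2 (0.19), ACVR2B (0.39), ACVR1B (0.62) and SMAD7 (0.92).

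Transcripts of the m6A machinery were called in both directions relative to the typical transcript. Of 7 writer genes measured (of 9), RBM15 (1.86 ± 0.24), VIRMA (1.47 ± 0.49) and WTAP (1.04 ± 0.18) were enriched and CBLL1 (-1.03 ± 0.31) depleted, while METTL16, ZC3H13 and RBM15B had 0.62, 0.58 and 0.06. Of all transcripts 28.3% were enriched and 26.6% depleted. RBM15 had 3 of 5 peaks enriched, and that at position 2401 held 31, 20, 30 and 22 input reads and 528, 752, 1134 and 971 IP reads (log2 3.08 ± 0.34). WTAP had both of its peaks enriched, the one at position 3201 with 199, 215, 424 and 411 input reads and 2651, 3312, 3936 and 5993 IP reads (log2 1.77 ± 0.23). CBLL1 lost its call without either MEL1 replicate (-0.73 and -0.96), WTAP without H1 replicate 1 (0.96) or MEL1 replicate 2 (0.89), and VIRMA without MEL1 replicate 2 (0.98).

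Of 10 erasers and readers measured (of 15), 5 were depleted (against 26.6% of all transcripts) and 1 enriched (against 28.3%). Their median input level was 161 CPM, and in the highest quartile of input level 4 of 7 were depleted against 43.4% of all transcripts. IGF2BP1 (-3.74 ± 0.27) had all 9 peaks depleted, IGF2BP2 (-2.12 ± 0.18) 9 of 10, the demethylase ALKBH5 (-2.97 ± 0.37) all 5, and PRRC2A (-1.72 ± 0.22) 11 of 12. ELAVL1 (-1.98 ± 0.36), an RNA-stabilising protein, was depleted in its single peak. YTHDF2, the reader that triggers decay, was the enriched one, with 1920, 1964, 2407 and 1862 input reads and 21568, 26687, 28401 and 37594 IP reads in 1 peak (transcript log2 1.26 ± 0.22). On the peak scale YTHDF2 had 1.86 ± 0.25, and on the transcript scale it fell to 0.98 without MEL1 replicate 2 and was not called. YTHDF3 had 3 of 4 peaks enriched but 0.79 as a transcript, and YTHDF1, YTHDC1 and HNRNPC had -0.17, -0.32 and -1.39 and were not called.

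Where in the transcript the enriched peaks lay could be read only in outline, because peaks are listed by a position within the gene and no chromosome coordinates were used. For 5981 of 7953 genes a RefSeq symbol gave 1 strand, and 2989 of these had at least 3 tested peaks. In genes on the + strand the peak with the highest listed position was enriched most often, in 29.4% against 23.0% at the lowest position and 21.7% between. On the − strand it was the peak with the lowest position, in 27.4% against 23.5% at the highest and 20.4% between. Positions therefore appear to run along the genome. With each gene ordered by strand on that reading, 28.4% of the peaks nearest the 3′ end, 23.2% nearest the 5′ end and 21.1% between were enriched. The reading was taken from these same shares, so the excess of the 3′ end over the 5′ end is not separate evidence. The pattern was not seen in MEL1 replicate 1, where the + strand medians were 0.04 at the lowest position, 0.07 between and 0.06 at the highest on the log2 scale. The number of merged peaks in a gene moved with the share as well: in genes with 1 tested peak 42.3% of peaks were enriched and 17.9% depleted, and in genes with 10 or more 14.3% and 37.5%.

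**Figure D5:**
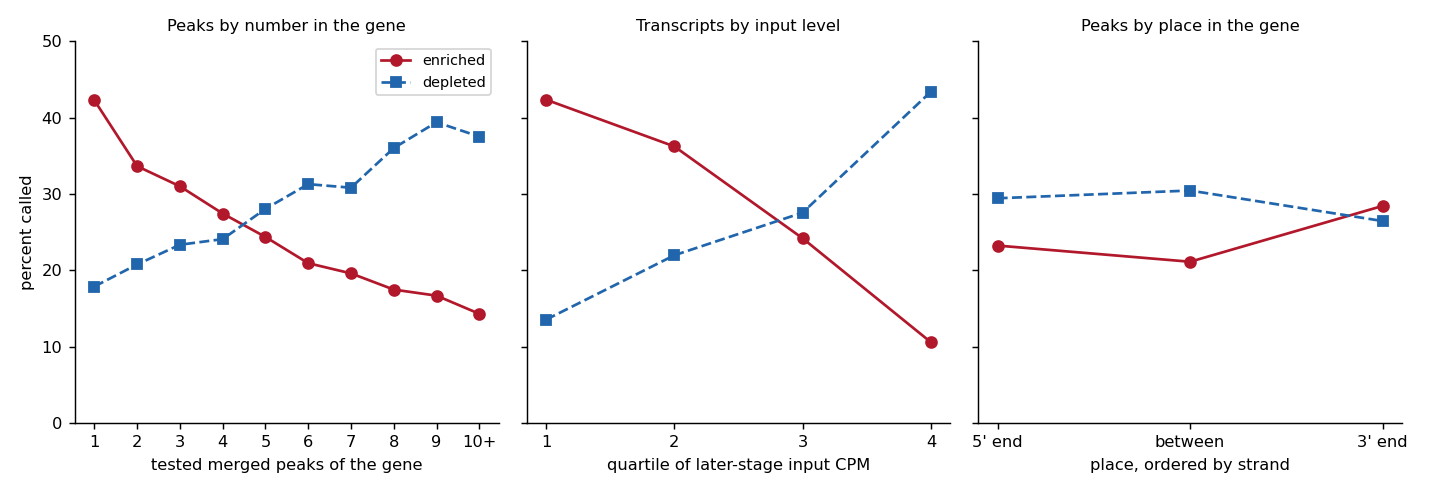
Percent of peaks or transcripts called enriched (circles) or depleted (squares) at S0 by the number of tested peaks in the gene (left), by quartile of the input CPM at the later stages (middle) and by place in the gene after ordering by strand (right). The enriched share falls from 42.3% to 14.3% with the number of peaks and from 42.4% to 10.6% with the input level.

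Of 100 peaks listed at position 1 of + strand genes with a single RefSeq start, 14 were enriched and 53 depleted, against 25.9% and 27.6% of all peaks, with a median of -1.77 on the log2 scale. The 4 most enriched of these with at least 10 reads in every input library were RPUSD2 (2.70 ± 0.38), HPDL (2.34 ± 0.49), HNRNPH2 (2.19 ± 0.26) and ZSWIM1 (2.18 ± 0.35). HNRNPH2, a splicing regulator, was the best covered, with 499, 476, 549 and 477 input reads and 5976, 7042, 10537 and 12724 IP reads. HPDL rested more on H1, with 41, 69, 33 and 32 input reads and 1407, 2384, 552 and 188 IP reads, and with MEL1 alone it had 1.34 and was not called. To show what is transcribed there, the first 30 bases from the RefSeq start are printed 5′ to 3′ on the + strand of GRCh38.p14, matched by symbol and not by peak coordinates, with GGAC (searched on the transcribed strand) in capitals where present.
RPUSD2, chr15:40569299-40569328: agatcgcgaccctgggagtggagtgggggc
HPDL, chr1:45326895-45326924: acaaccagcagctcggctcactgagacccg
HNRNPH2, chrX:101408222-101408251: actcgcttacgtgagcagaagtagttctgg
ZSWIM1, chr20:45881227-45881256: aaatagggagaaatggcgacggagcctggc
None of the 4 holds GGAC in this window, which 11.02% of 22114 RefSeq starts do, and 15 of the 100 genes. Of those 15, 3 had an enriched first peak, as had 11 of the other 85. The window covers only the first part of a peak.

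To ask whether the lines differed, the ratio of MEL1 was compared with that of H1 in each peak. MEL1 was higher in 369 of 25905 peaks (1.42%) and lower in 453 (1.75%). The largest differences by the rule were peaks with no or almost no IP reads in one line, for which counts are given in place of a fold. NPIPA9 (position 7751), a member of a multicopy family whose reads cannot be assigned with certainty, had 97 and 60 IP reads in H1 and 0 and 0 in MEL1, with 145 and 84 against 64 and 95 input reads (adjusted p = 0.050). COL11A1, a fibrillar collagen, had 90 and 113 against 0 and 0, AGGF1, an angiogenic factor, 85 and 106 against 1 and 0, and the kinase MARK2 22 and 20 against 0 and 0. In the other direction the peak of WDR45B, an autophagy protein, had 0 and 2 IP reads in H1 and 121 and 117 in MEL1, with 30, 27, 50 and 55 input reads (adjusted p = 0.078). MORF4L2, a chromatin protein, had 0 and 0 against 39 and 24, the Hippo effector YAP1 0 and 1 against 31 and 35, the splicing factor WBP11 0 and 0 against 41 and 65, and the proteasome subunit PSMB6 0 and 0 against 17 and 38.

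Of 338 tested peaks of the pluripotency and m6A genes, 13 were higher in MEL1 and 6 lower, where 1.42% and 1.75% of all tested peaks were. Among the higher were peaks of DNMT3B (position 801, 2.52 ± 0.49), DPPA4 (position 1997, 2.02 ± 0.41), MYC (position 2151, 2.84 ± 0.53) and PODXL (3 peaks). Another peak of DNMT3B (position 1201, -1.79 ± 0.38) was lower, so its called peaks went both ways, and a peak of FGFR2 (position 5979, -3.61 ± 0.76) was lower too. Of the peaks with the most IP reads of each gene, those of LIN28A (difference of MEL1 from H1 -4.04 ± 0.42, adjusted p = 0.036), DNMT3A (-3.004 ± 0.32, adjusted p = 0.039), EPCAM (-2.99 ± 0.37, adjusted p = 0.045) and CBLL1 (-1.81 ± 0.37, adjusted p = 0.088) were lower in MEL1. Those of DNMT3A and CBLL1 were not called against input over both lines, at -0.64 and -0.42 on the peak scale.

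Of the 10 peaks the rule took, 2 kept their call without H1 replicate 1, 3 without H1 replicate 2 and 5 after thinning to equal depth. The calls were lost on the p-value, and all 10 kept their direction and a difference of over 2-fold. Such fits leave 1 preparation in a line, which is assumed to vary like the other line, and the counts that follow carry the tighter spread of H1 or the wider one of MEL1 (chi-square per degree of freedom of 4.75 and 35.0 for IP). Without H1 replicate 1 or 2 there were 20 and 33 higher and 42 and 91 lower peaks, and without MEL1 replicate 1 or 2 there were 4630 and 4110 higher and 6588 and 4266 lower. Fits without the preparation block called 1840 higher and 2140 lower, DESeq2 1163 and 1294, library totals 661 and 212, and the mitochondrial reference 14485 and 36. The 2 lines also differed in background: mitochondrial mRNA took 17.8% to 27.5% of the reads of the S0 input libraries, 1.60% to 1.85% of the H1 IP and 0.46% to 0.49% of the MEL1 IP. Its part in the line differences was not tested. Each line is 1 genetic background, so genotype and culture cannot be told apart.

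Finally, S0 was compared with the mean of S3, S4 and S6. In a model of all 32 libraries 7715 peaks were enriched at S0, of which 84.8% were also enriched at S3, 55.0% at S4 and 80.3% at S6, which is 81.9%, 83.3% and 82.4% of the peaks enriched at those stages. Of 6687 peaks depleted at S0, 90.4%, 85.8% and 90.7% were depleted at the later stages. At S3, S4 and S6, 2, 140 and 11 of the peaks enriched at S0 were called depleted. In the other direction 10, 13 and 8 of the peaks depleted at S0 were called enriched. The direct test found 229 of 26104 peaks (0.877%) higher at S0 and 25 (0.0958%) lower, around a median over all peaks of 0.39 on the log2 scale in favour of S0. With S3 and S6 alone the median was 0.05 and the counts 379 and 138, and with RLE scaling 71 and 35. The S4 IP libraries of MEL1 are shallow, and their part in the S4 shares and in the median was not tested.

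The 6 peaks with the largest excess at S0 belonged to GNPNAT1, OGA, HSP90B1, HIP1, FAM53C and BCAS2. At S4 all 6 were without an IP read, save 1 read for HIP1. The S4 IP libraries of MEL1 are shallow, so a count of 0 there is weaker evidence of a low ratio. None of the 6 was enriched at S0. Their log2 ratios to input at S0 were -1.69, -1.60, -2.99, -1.54, -0.93 and -0.18, the first 3 called depleted. GNPNAT1, which makes the precursor of protein O-GlcNAc, had 15, 9, 85 and 104 IP reads at S0 (log2 ratio to input of -1.69), 7 in all 4 IP libraries at S3 and 0 at S4 and S6, with 67, 46 and 38 input reads at these stages (adjusted p = 0.071). OGA, which removes O-GlcNAc, had 15, 14, 76 and 138 IP reads at S0, and 11, 0 and 1 in total at S3, S4 and S6 (adjusted p = 0.067). HSP90B1, a chaperone of the endoplasmic reticulum, had 29, 25, 30 and 154 IP reads at S0 and 6, 0 and 1 in total later (adjusted p = 0.047). HIP1, FAM53C and BCAS2 followed, at 4.53, 4.47 and 4.45 above the later mean on the log2 scale, with 7, 41 and 177 IP reads in total at S3. With 0 or 1 IP read at S4 in all 6 peaks, the size and order of these differences are uncertain. Against S3 and S6 alone FAM53C had 3.11 and BCAS2 2.65, and neither was called. In all 6 the S0 IP counts of both MEL1 replicates were above those of both H1 replicates, though for HSP90B1 MEL1 replicate 1 had 30 against 29 and 25.

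Lower at S0 were peaks of ACADVL, ASXL1, RBM17 and SUGP2, all that passed the test with the required input counts. ACADVL (position 2101), the mitochondrial enzyme that starts oxidation of very long fatty acids, had 303, 309, 394 and 320 input reads and 183, 207, 109 and 146 IP reads at S0, against 435 to 774 input reads and 1516 to 2490 IP reads at S3, 387 to 682 and 587 to 2707 at S4, and 392 to 603 and 282 to 359 at S6 (difference -2.02 ± 0.41, adjusted p = 0.047). Its enrichment over input was -2.83 at S0, against -0.09, 0.24 and -2.57 at the later stages in turn. The value at S6 was thus nearer to that at S0 than to S3 and S4, a difference that was not tested. ASXL1, a Polycomb-linked regulator, had -1.24 at S0 and 0.61, 0.90 and 0.28 later (difference -1.83 ± 0.31, adjusted p = 0.018), and RBM17, a splicing factor, 1.24 at S0 and 2.67, 2.97 and 3.39 later (difference -1.77 ± 0.46). SUGP2, a protein with a splicing-factor domain, had a difference of -1.58 ± 0.40, and of -0.67 in H1 alone, where it was not called. Leaving out 1 S0 preparation left 18 to 65 higher and 10 to 16 lower peaks. Of the 10 named peaks 1 kept its call without H1 replicate 1, 1 without H1 replicate 2, 2 without MEL1 replicate 1 and 1 without MEL1 replicate 2. None kept it with the mitochondrial reference, 5 kept it under RLE (not GNPNAT1, OGA, HIP1, BCAS2 and RBM17) and 5 in MEL1 alone (not BCAS2, FAM53C, HIP1, HSP90B1 and RBM17). The differences themselves kept their direction in all these fits, and with 1 preparation left out GNPNAT1 lay between 4.65 and 5.74, ACADVL between -2.21 and -1.77 and RBM17 between -2.15 and -1.55.

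Relative to the typical peak of the 32-library model, the median over peaks of ZNF genes was 1.61 at S0 and 1.61, 0.64 and 1.26 at S3, S4 and S6, where the median of all peaks was 0.21, 0.07, -0.55 and -0.11. For glycolysis it was -3.87 at S0 and -4.93, -4.14 and -4.95 later. Peaks of the RNA-binding and epigenetic regulators of pluripotency had -0.28 at S0 and -0.83, -1.55 and -1.69 later, and those of pluripotency factors 0.25 and 0.16, -0.09 and -0.18. The SOX2 peak at position 1051 had 2.17 at S0 and 1.85, 1.17 and 1.44 later, and the SALL4 peak at position 4423 2.57 and 3.14, 2.06 and 2.82, neither called between S0 and later.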

How the data were processed

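RNA of 4 preparations at S0 was sequenced as input and m6A IP. The authors defined peaks with MeRIPtools from binned coverage (50 bp) of Ensembl 94 genes. The deposited values are raw counts per merged peak, without normalization. Aligner, genome build and peak-calling settings are not given in the sources used here, nor is it said which libraries peaks were called on. Peaks of stages other than S0 may therefore be among those tested. The table holds 26104 peaks of 7978 genes, of which 7938 were given a symbol and 40 kept their identifier.

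The tests used edgeR 4.0.16 under R 4.3.3 (TMM, quasi-likelihood test, RNA preparation as block, total of at least 10 reads), limma 3.58.1 and DESeq2 1.42.0 (alternative, used by the study), and plotted in Python 3.11.15 with matplotlib 3.10.9. A call needs a Benjamini-Hochberg adjusted p under 0.1 and at least 2-fold. A standard error (SE) is the log2 value divided by the square root of F, and ± stands for it. It comes from the fit of the 4 S0 preparations, or of all 32 libraries for differences from later stages. Ratios of single preparations use scaled CPM with a prior count of 1. Transcript values sum the counts of a gene's peaks. Line differences and the difference from later stages are interactions with library type, the latter over 32 libraries. Where the 4 IP libraries held 0 to 3 reads in all, and for RMRP, a ratio of pooled reads with an exact 95% interval, or a bound at 3 reads, is given.

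Pairing of input and IP comes from the protocol and shared labels. Deviations of same-numbered libraries from the mean of all 4 preparations correlated at 0.38, 0.49, 0.25 and 0.22 across peaks, but these values carry the difference between lines. Within a line they correlated at 0.078 (H1) and -0.33 (MEL1), so the counts themselves give no support for the numbered pairs. P-values measure the spread between these preparations.

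Named genes were the 12 highest and 12 lowest called peaks and 10 highest and lowest transcripts with at least 10 reads in every S0 input library and 1 direction in all preparations, the 5 and 6 largest differences between lines and from later stages, all measured pluripotency and m6A genes, and the 4 most abundant members of other lists. For pluripotency and m6A genes the peak with the most IP reads is shown. The members and lists were chosen with earlier results of these data known. Mitochondrially encoded and Y-linked genes were left out of the ranking, and a few named genes are not reported here. Tests were tried on simulated data. Alternatives are given with the closing observations.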

Additional observations from a re-analysis of the deposited data

Results flagged for a closer look

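Among 194 groups of 4 preparations behind the named values, 17 held a preparation whose gap to the nearest other exceeded Dixon's 95% critical value, where chance flags about 1 in 20. On the log2 scale the outlying preparation had 4.71 in the peak of P2RY1 and 2.23 in that of YTHDF2. For whole transcripts it had 3.55 in WDR20, -8.24 in RN7SL2, 1.05 in CHD7, -2.57 in ESRP1, 1.08 in NODAL, 0.33 in LEFTY2, 1.01 in METTL16, -2.34 in PRRC2A, -4.42 in ALKBH5, -3.22 in ELAVL1, 0.48 in SETD5, -0.96 in SLC2A3, -1.17 in MRPS2, 2.39 in ZNF146 and -5.26 in EIF4B.

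The ratio differed between the lines, by the interaction of line and library type, in the named peaks of MORF4L2 (adjusted p = 0.093), YAP1 (0.095), WBP11 (0.098), PSMB6 (0.088), WDR45B (0.078), NPIPA9 (0.050), MARK2 (0.089), AGGF1 (0.065) and COL11A1 (0.077). Of the 10 line peaks the rule took, 2 and 3 kept their call without H1 replicate 1 and 2, and all kept their direction. The ratio differed between S0 and the later stages, by the same kind of test, in the peaks of GNPNAT1 (5.25 on the log2 scale), OGA (5.13), HSP90B1 (4.66), HIP1 (4.53), FAM53C (4.47), BCAS2 (4.45), ACADVL (-2.02), ASXL1 (-1.83), RBM17 (-1.77) and SUGP2 (-1.58).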

How the results depend on the processing

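The counts of enriched and depleted peaks stayed within 1.5 times the reported values under DESeq2, RLE, library totals, both filters, thinning to equal depth, each line alone, a fit of all 32 libraries and each preparation left out, and moved only with the mitochondrial reference (21085 and 91). Transcript counts moved with library totals (4577 and 1171) and that reference (7534 and 11). Without the replicate block 7221 peaks were enriched and 7693 depleted. Higher and lower peaks in MEL1 numbered 1163 and 1294 under DESeq2, 661 and 212 with library totals, 14485 and 36 with the mitochondrial reference, 1840 and 2140 without the replicate block, and 20 to 4630 and 42 to 6588 with 1 preparation left out, where the lone preparation was assumed to vary like the other line and the count is no measure of stability. Within MEL1, deviations of same-numbered input and IP libraries correlated at -0.33. Pairing them crosswise, chosen after seeing the data, gave 6922 enriched and 7423 depleted peaks, and 1801 higher and 2670 lower in MEL1. Peaks higher and lower at S0 than later numbered 1137 and 302 under DESeq2, 480 and 28 with library totals, 3 and 10 with the mitochondrial reference, 71 and 35 under RLE, 649 and 44 without the replicate block, 4054 and 589 in H1 alone, 738 and 129 in MEL1 alone, 379 and 138 against S3 and S6 alone, and 18 to 65 and 10 to 16 with 1 preparation left out. After removal of each setting's overall shift, the sign of LRP6 turned with the mitochondrial reference (0.042), and with 1 preparation left out uncalled transcripts crossed 0: LRP6 ran from -0.17 to 0.25, SON from -0.36 to 0.058, RIF1 from -0.27 to 0.054, TGFBR1 from -0.24 to 0.18, RBM15B from -0.13 to 0.18, DPPA4 from -0.33 to 0.12, MTF2 from -0.17 to 0.24 and ZFP42 from -0.26 to 0.14. Under DESeq2 and RLE, which lowered all transcripts by 0.13 and 0.12, SOX2, WTAP, TERF1, SMAD3 and ONECUT2 were not called, although without that shift they had 1.04 to 1.11. HNRNPC was called depleted (-1.38 and -1.39), as it was without the replicate block (-1.55) and with MEL1 pairs crossed (-1.39). Without H1 replicate 2 YTHDF3 was called enriched (1.01), and without MEL1 replicate 2 ERBB3 depleted (-1.08). The causes were not tested.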
